A study of Saccharomyces eubayanus and Saccharomyces cerevisiae x Saccharomyces eubayanus with 20 samples.

Results

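GRE1, SIP18, STF2, SPG1 and SPG4 are 5 genes for hydrophilins and for proteins of the stationary phase. They were chosen by their gene names, with their expression on maltotriose in these libraries already known, so their own values are given as a description and carry no test. Each gene had 1 model on the S. eubayanus CDFM21L.1 genome, which makes 5 of the 5513 genes listed for the S. eubayanus strains. In the hybrid each also had a model on the S. cerevisiae CBC-1 genome, which makes 10 of 11292 listed genes. The prefixes Se and Sc mark copies of the S. eubayanus and S. cerevisiae subgenomes.

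Messenger RNA was sequenced in 20 libraries from 10 groups of duplicate cultures, grown in synthetic medium with 20 g/L sugar and sampled in what the labels call the mid-exponential phase, at an OD660 of 12.5. The methods of the study instead give a higher density at sampling for maltotriose than for glucose and maltose cultures, and under them sugar and density cannot be told apart. HTS020 is a laboratory hybrid of S. cerevisiae CBC-1 and S. eubayanus CDFM21L.1 (MATa/MATα Mal+ Mtt+) and was grown on maltotriose, maltose and glucose. IMX1939 and IMX1765 are diploid S. eubayanus strains grown on the same sugars. Both carry ScMAL13, a maltose regulator gene of S. cerevisiae, in place of both SGA1 alleles, under the constitutive PGK1 promoter of S. cerevisiae. IMX1939 also lacks both alleles of the transporter gene SeMALT1. CDFM21L.1 is the Himalayan S. eubayanus wild type from which both strains were built, and was grown on glucose only. Each strain was represented by 1 line.

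Hydrophilins are small, strongly hydrophilic proteins that remain soluble on boiling, and yeast accumulates them during water loss, salt stress and starvation. The stationary phase is the state yeast enters when a nutrient runs out, in which growth stops and storage, stress and respiratory genes take over from the genes of growth. In S. cerevisiae, GRE1 and SIP18 are paralogous hydrophilins induced by osmotic stress and desiccation, and STF2 is a hydrophilin that also acts on the mitochondrial ATP synthase together with the inhibitor proteins INH1 and STF1. SPG1 and SPG4 are needed for survival of the stationary phase at high temperature. Many genes of this kind are under the zinc-finger activators Msn2 and Msn4, which bind the stress response element AGGGG.

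The windows with this element are shown because 2 of the 5 genes hold it and the other 3 do not. The 500 bases before the start codon were searched on both strands for AGGGG in the S. cerevisiae S288C reference genome of RefSeq, which is not a genome of these strains. Sequences are written on the strand of the gene with 10 bases on either side, and the capitals mark the element, read as CCCCT where it lies on the other strand. Those of STF2 (minus strand) lie at chrVII:508630-508654 and chrVII:508539-508563, with the element starting 280 and 189 bases before the start codon. Those of SIP18 (plus strand) lie at chrXIII:610618-610642 and chrXIII:610637-610661, 388 and 369 bases before the start codon.
STF2 first site: atatacgcggAGGGGgggaggaaaa
STF2 second site: cttcgaaaacAGGGGgctgcgagcg
SIP18 first site: ccttaagcctCCCCTaaatgctttc
SIP18 second site: gctttcggtaCCCCTttaagacaac
At least 1 match was found before 34.1% of 6000 genes and at least 2 before 8.13%. The windows of GRE1, SPG1 and SPG4 held no match of these letters. A match is a description of the sequence, and binding was not measured.

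In CDFM21L.1 the models of STF2 and SPG1 lie on chromosome 7, at positions 563048 to 563302 and 980458 to 980745, both on the minus strand. SPG4 (485861 to 486214) and SIP18 (611193 to 611447) lie on chromosome 13 on the plus strand, and GRE1 lies on chromosome 16 from 113671 to 114186 on the minus strand. Expression is given in FPKM, a measure of fragments per length of gene and depth of library. In CBC-1 the copies lie on the same chromosome numbers, with STF2 from 516418 to 516672, SPG1 from 940598 to 940885, SPG4 from 428873 to 429220, SIP18 from 556611 to 556850 and GRE1 from 119318 to 119821.

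The depth was 16874233 to 27175322 reads on genes in 19 libraries. The first culture of IMX1765 on maltotriose gave only 318922, and in it SeGRE1 rested on 1 read, SeSIP18 on 3, SeSTF2 on 124, SeSPG1 on 3 and SeSPG4 on 1. The labels were checked on the altered genes. SGA1 had 0 to 5 reads in the IMX1765 libraries, 0 to 7 in those of IMX1939 and 36 to 48 in those of CDFM21L.1. ScMAL13 had 226 to 23525, 9860 to 28485 and 4 to 6 reads in the same strains. SeMALT1 had 1 to 46 reads in IMX1939, 4 to 859 in IMX1765 and 12 to 37 in CDFM21L.1, so that the ranges over all sugars overlap. The 4 reads come from the first culture of IMX1765 on maltotriose. On glucose SeMALT1 had 1 and 2 reads in IMX1939, 47 and 36 in IMX1765 and 12 and 37 in CDFM21L.1. In the hybrid, the titles and carbon source labels used here disagree with the sample descriptions for 3 libraries. The descriptions place the first maltose culture in maltotriose medium and both maltotriose cultures in maltose medium. For the copies of GRE1, SIP18, SPG1 and SPG4, both cultures labelled maltotriose stood above the other 4, and for STF2 they did not. The levels were not used to choose between the labels. Every statement on the hybrid's sugars below rests on the titles, and under the descriptions the high levels of these genes would belong to maltose medium.

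The hybrid on maltotriose had the highest levels of GRE1, SIP18, SPG1 and SPG4 of all groups. The 10 copies together took 3.91 and 4.20% of the reads on genes in the maltotriose cultures, against 0.0116 and 0.0200% in the glucose cultures. The maltose cultures, with 0.0339 and 0.0927%, lay above both glucose cultures and below both maltotriose cultures. Without STF2 the maltotriose shares were 3.87 and 4.16%, so that nearly all of these reads were on the other 4 genes. Levels of bulk cultures do not tell more RNA per cell from a larger share of cells with such RNA.

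**Figure D1:**
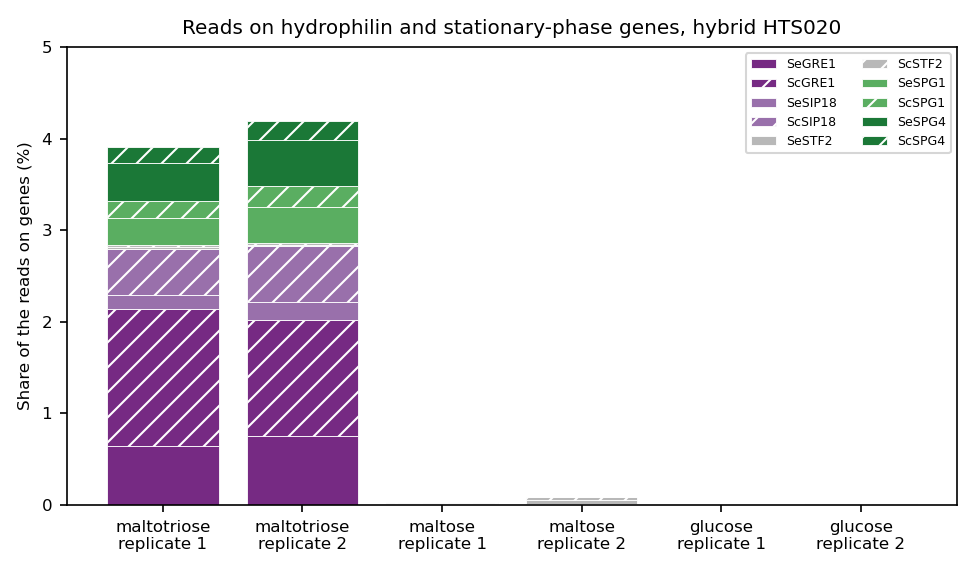
Share of the reads on genes (%, vertical axis) taken by the copies of GRE1, SIP18, STF2, SPG1 and SPG4 in the 6 libraries of HTS020, stacked by copy, with S. cerevisiae copies hatched. The maltotriose bars reach 3.91 and 4.20%, and the highest of the other 4 bars reaches 0.0927%.

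GRE1 had the highest mean FPKM of the set on maltotriose in each subgenome, although its range overlapped that of SIP18 in the S. cerevisiae subgenome and those of SPG1 and SPG4 in the S. eubayanus subgenome. ScGRE1 had 29610 and 25165 FPKM in the maltotriose cultures, against 40.9 and 45.5 FPKM in the glucose cultures, a ratio of means of 633 ± 86.8 (SD propagated from n = 2 each). By FPKM it ranked 1 and 3 among the 11292 genes of the 2 maltotriose libraries. SeGRE1 had 12531 and 14627 FPKM on maltotriose, against 0.538 and 0.657 FPKM on glucose, a ratio of 22733 ± 4063 that rests on 11 reads in the glucose cultures. The glucose and maltotriose values of both copies were more than 2 orders of magnitude apart, while duplicates lay within a ratio of 1.22 of each other.

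SIP18, the paralog of GRE1, followed the same course. ScSIP18 had 21209 and 25718 FPKM on maltotriose, against 6.01 and 2.59 FPKM on glucose, a ratio of 5457 ± 3157. SeSIP18 had 5969 and 7453 FPKM on maltotriose, against 3.26 and 5.76 FPKM on glucose, a ratio of 1487 ± 627. Both copies were thus among the 19 genes of highest FPKM on maltotriose, and on glucose they had 11 to 26 reads per library.

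The stationary-phase genes SPG1 and SPG4 reached the same range. SeSPG1 had 10282 and 13619 FPKM on maltotriose, against 0.193 and 0.785 FPKM on glucose, where it had 1 and 4 reads. The ratio of its pooled reads per library read was 24543 (exact 95% counting interval 10517 to 75590). ScSPG1 had 6247 and 7900 FPKM on maltotriose, against 5.97 and 9.42 FPKM on glucose, a ratio of 919 ± 328. In SPG1 the S. eubayanus copy was thus the higher one on maltotriose and the lower one on glucose.

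SPG4 had the S. eubayanus copy higher throughout. SeSPG4 had 11657 and 14326 FPKM on maltotriose, against 3.45 and 2.39 FPKM on glucose, a ratio of 4447 ± 1305. ScSPG4 had 5165 and 5951 FPKM on maltotriose, against 0.797 and 0.325 FPKM on glucose, where it had 5 and 2 reads. Its pooled ratio was 9861 (exact 95% counting interval 4786 to 24528). The intervals cover only the counting error of the pooled reads and leave out the spread between cultures. Reads are also not independent molecules, so the intervals may be too narrow even for counting error.

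STF2 stood apart from the other 4 genes. SeSTF2 had 484 and 397 FPKM on maltotriose, against 120 and 321 FPKM on glucose, a ratio of 2.00 ± 1.32. ScSTF2 had 1178 and 866 FPKM on maltotriose, against 232 and 349 FPKM on glucose, a ratio of 3.52 ± 1.25. Its maltotriose cultures lay above its glucose cultures for both copies, by less than 5-fold in means, and STF2 was the most abundant of the 5 on glucose and on maltose.

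**Figure D2:**
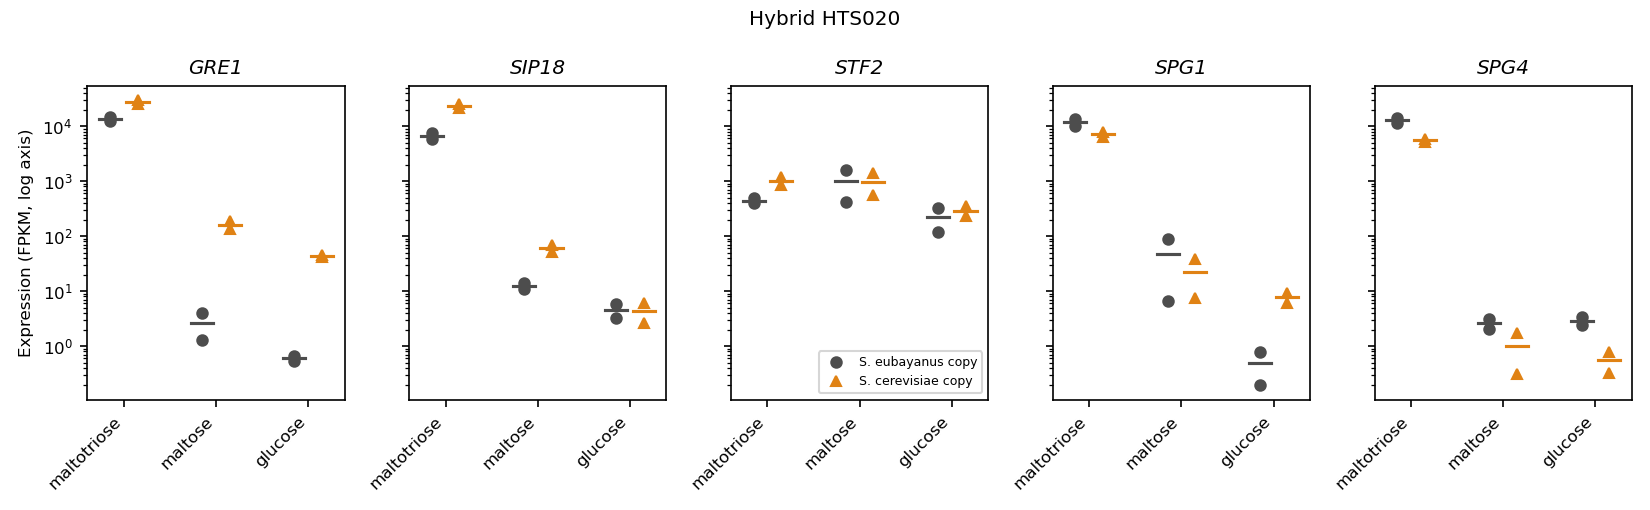
Expression of both copies of each gene in HTS020 (FPKM, log axis) on maltotriose, maltose and glucose, with a point per culture and a line at the mean of 2. GRE1, SIP18, SPG1 and SPG4 lie between 5165 and 29610 FPKM on maltotriose and below 200 FPKM elsewhere, while STF2 lies between 120 and 1629 FPKM on every sugar.

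All 10 copies were higher in both maltotriose cultures than in both glucose cultures, beside 39.6% of the 10990 genes whose mean reached 1 FPKM. Since this contrast chose the genes, nothing is read from that count. Across all genes the median log2 difference of maltotriose to glucose was -0.14, and it was -0.00025 after the libraries were rescaled by their median ratio. Beside it, the log2 differences of the members, on the log2(FPKM + 1) scale, ran from 1.16 for SeSTF2 to 13.05 for SeGRE1 with a median of 10.99.

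On maltose the hybrid differed less from glucose, and the genes differed among themselves. Of the 10 copies, 7 were higher in both maltose cultures than in both glucose cultures, beside 33.2% of all genes. Nothing is read from that count either, since it shares its glucose cultures with the contrast that chose the genes. ScGRE1 had 132 and 188 FPKM on maltose, against 40.9 and 45.5 FPKM on glucose. ScSIP18 had 52.5 and 70.5 FPKM on maltose, against 6.01 and 2.59 FPKM on glucose, a ratio of 14.3 ± 8.57. These S. cerevisiae copies of the GRE1 and SIP18 pair were well above their S. eubayanus counterparts on maltose, which had 1.27 and 4.01 FPKM for SeGRE1 and 10.95 and 13.9 FPKM for SeSIP18.

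The stationary-phase genes split on maltose. SeSPG1 had 6.66 and 88.5 FPKM in the maltose cultures, against 0.193 and 0.785 FPKM in the glucose cultures, without overlap but with a 13.3-fold gap between duplicates. ScSPG1 had 7.42 and 37.8 FPKM on maltose, against 5.97 and 9.42 FPKM on glucose, and the groups overlapped. SPG4 was near its glucose level on maltose. SeSPG4 had 2.01 and 3.17 FPKM on maltose, against 3.45 and 2.39 FPKM on glucose, and ScSPG4 had 0.315 and 1.74 FPKM, against 0.797 and 0.325 FPKM, so that both copies overlapped.

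The copies of STF2 overlapped between maltotriose and maltose. SeSTF2 had 424 and 1629 FPKM on maltose, and its mean of 1027 ± 852 FPKM was above the 441 ± 61.6 FPKM on maltotriose, with overlapping cultures. ScSTF2 had 563 and 1398 FPKM on maltose, overlapping with the 1178 and 866 FPKM on maltotriose. The other 8 copies were higher in both maltotriose cultures than in both maltose cultures, beside 36% of all genes. Since the genes were chosen with their maltotriose levels known, nothing is read from that count. The ratios of means of these 8 copies ran from 171 ± 46.5 for ScGRE1 to 5421 ± 5341 for ScSPG4.

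The subgenomes shared the maltotriose levels unequally. Across 4680 gene pairs with the same systematic name, the S. eubayanus over the S. cerevisiae copy had a median log2 ratio of -0.06 on maltotriose, and 90% of pairs lay between -1.57 and 1.42. SIP18, at -1.81 ± 0.03 (SD, n = 2), lay below this range. SPG4 at 1.22 ± 0.07, SPG1 at 0.75 ± 0.05, GRE1 at -1.01 ± 0.32 and STF2 at -1.20 ± 0.11 lay inside it. On maltotriose the S. eubayanus copy was thus the higher one for SPG1 and SPG4, and the S. cerevisiae copy for GRE1, SIP18 and STF2.

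The balance of the copies differed between sugars for GRE1 and SPG1. ScGRE1 was 2.36 and 1.72 times SeGRE1 in the maltotriose cultures, 104 and 46.9 times in the maltose cultures, and 76.2 and 69.3 times in the glucose cultures. For SPG1 the log2 ratio was 0.72 and 0.79 on maltotriose, -0.14 and 1.21 on maltose, and -2.55 in both glucose cultures, where SeSPG1 had 1 and 4 reads. These glucose values are shrunk by the added 1 FPKM. Without it ScSPG1 was 31 and 12 times SeSPG1 in the glucose cultures. The log2 ratio of SPG4 was above 0 in all 6 libraries, between 0.61 and 1.36. SIP18 was lower in the S. eubayanus copy by 2.16 and 2.26 on the log2 scale on maltose, while on glucose its cultures gave -0.72 and 0.91, with 11 to 26 reads per copy.

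**Figure D3:**
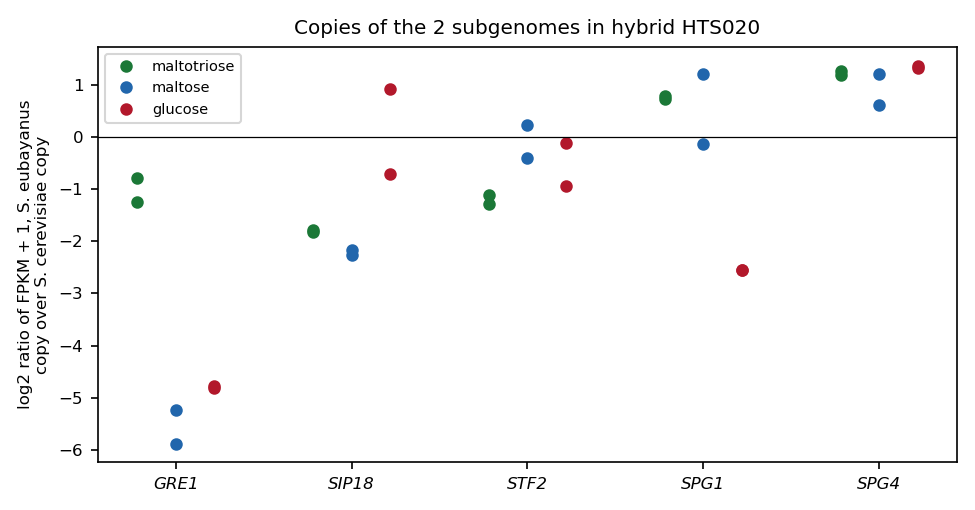
Log2 ratio of copies, S. eubayanus over S. cerevisiae (FPKM + 1, vertical axis) of each gene in HTS020, with a point per culture, coloured by sugar. GRE1 lies between -5.87 and -4.77 on maltose and glucose and between -1.24 and -0.78 on maltotriose, and SPG4 lies above 0 on every sugar.

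The S. eubayanus strains were tabulated without a second subgenome, so their FPKM values are not on the scale of the hybrid's and are set beside them only as levels. In their 14 libraries SeGRE1 spanned 0.695 to 9.61 FPKM and SeSIP18 0.426 to 60.1 FPKM. SeSTF2 was the abundant gene there, from 197 to 6362 FPKM, and SeSPG1 and SeSPG4 reached 1707 and 963 FPKM. On maltotriose SeGRE1 and SeSIP18 had at least 5969 FPKM in the hybrid, whereas SeSTF2 had 484 and 397 FPKM there, against 1525 to 6362 FPKM in the maltotriose cultures of the S. eubayanus strains.

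In IMX1939 the stationary-phase genes had the widest range. SeSPG1 had 52.4 and 1707 FPKM on maltotriose, against 1.51 and 2.31 FPKM on glucose, and the duplicates on maltotriose differed 32.6-fold. SeSPG4 had 358 and 963 FPKM on maltotriose, against 7.07 and 8.83 FPKM on glucose, a ratio of 83.1 ± 55.4. Both genes lay in between on maltose, SeSPG4 at 27.5 and 26.7 FPKM and SeSPG1 at 3.69 and 45.8 FPKM.

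The hydrophilins of IMX1939 differed less between sugars. SeGRE1 had 5.59 and 9.61 FPKM on maltotriose, against 0.738 and 0.695 FPKM on glucose, a ratio of 10.6 ± 4.0. SeSIP18 had 8.92 and 17.0 FPKM on maltotriose, against 0.426 and 3.22 FPKM on glucose. SeSTF2 had 2640 and 4769 FPKM on maltotriose, against 197 and 1574 FPKM on glucose, a ratio of 4.18 ± 4.91. All 5 genes were higher in both maltotriose cultures than in both glucose cultures, beside 39.6% of the 5404 genes whose mean reached 1 FPKM. On maltose 4 of the 5 were higher than on glucose without overlap, beside 36% of all genes, with SeGRE1 at 2.47 and 2.39 FPKM and SeSIP18 at 3.96 and 4.30 FPKM. SeSTF2, with 856 and 2991 FPKM on maltose, overlapped with glucose. Between maltotriose and maltose, 4 of the 5 were higher on maltotriose, beside 26.6% of all genes. Nothing is read from these counts. The genes were chosen with their levels on maltotriose known, and the count of maltose to glucose shares the glucose cultures.

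In IMX1765 the maltotriose values rest on the shallow library and 1 other. SeSPG1 had 32.7 and 426 FPKM on maltotriose, against 5.06 and 5.97 FPKM on glucose. SeSPG4 had 8.86 and 113 FPKM on maltotriose, against 3.22 and 3.68 FPKM on glucose. SeSTF2 had 1525 and 6362 FPKM on maltotriose, against 805 and 1145 FPKM on glucose. The first value of each pair comes from the shallow library, and both libraries lay above both glucose cultures for each of these genes. SeSIP18 had 36.9 and 60.1 FPKM on maltotriose, against 29.3 and 36.0 FPKM on glucose, and SeGRE1 had 6.08 and 8.13 FPKM, against 5.82 and 8.15 FPKM. Without overlap 4 of the 5 were higher on maltotriose than on glucose, beside 26.5% of all genes, and 3 were higher than on maltose, beside 10.2% of all genes. Here too, nothing is read from the counts on maltotriose.

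On maltose IMX1765 showed the hydrophilin pair below its glucose level. SeGRE1 had 2.31 and 2.61 FPKM on maltose, against 5.82 and 8.15 FPKM on glucose, a ratio of 0.352 ± 0.0886. SeSIP18 had 22.1 and 8.82 FPKM on maltose, against 29.3 and 36.0 FPKM on glucose. The other 3 genes lay above glucose on maltose, with SeSTF2 at 1834 and 2809 FPKM, SeSPG1 at 6.61 and 16.4 FPKM and SeSPG4 at 11.9 and 8.64 FPKM. The 2 genes lower without overlap stand beside 38.4% of all genes, and the 3 higher ones beside 31.5%. These counts share their glucose cultures with the maltotriose comparison, and nothing is read from them.

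**Figure D4:**
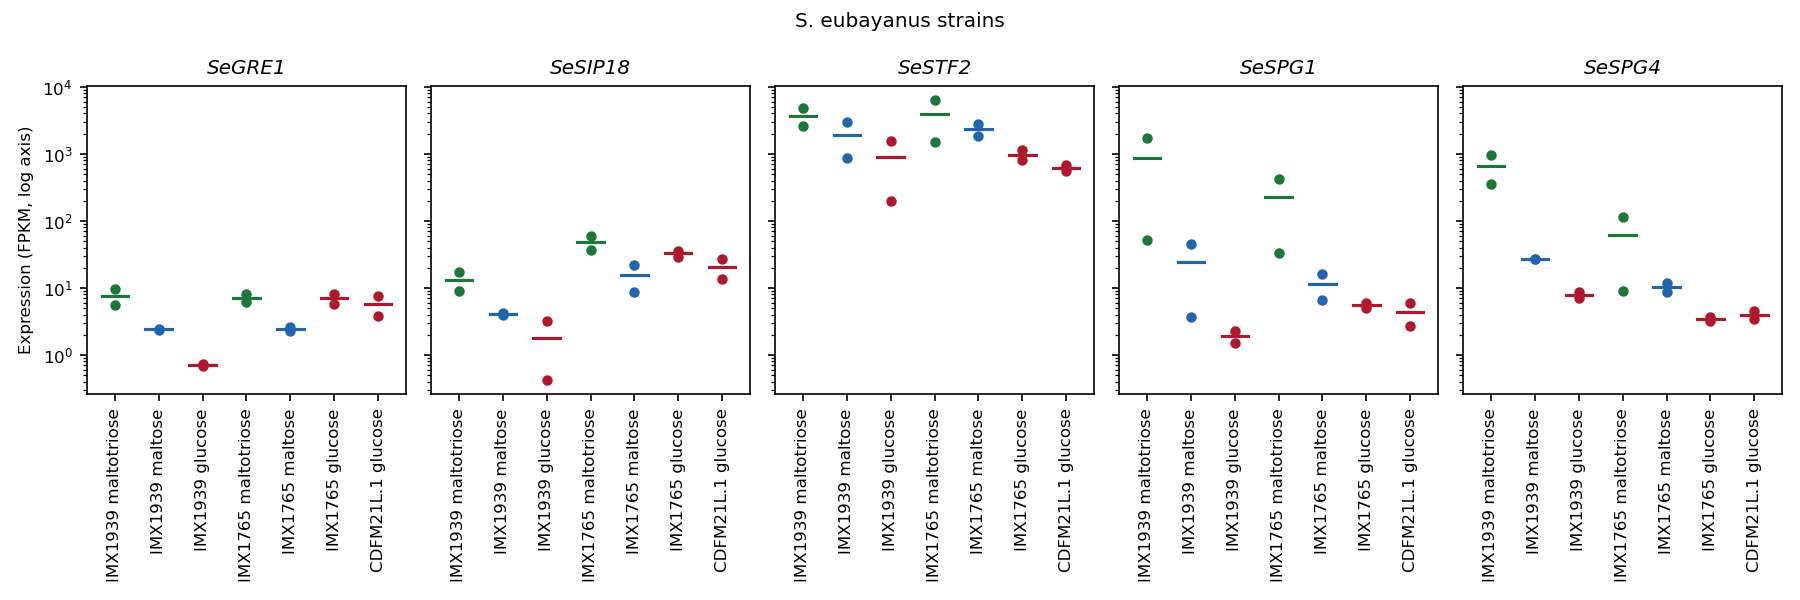
Expression of the S. eubayanus genes (FPKM, log axis) in IMX1939 and IMX1765 on maltotriose, maltose and glucose and in CDFM21L.1 on glucose, with a point per culture and a line at the mean of 2. SeSPG1 and SeSPG4 reach 1707 and 963 FPKM on maltotriose in IMX1939, and SeSTF2 lies between 197 and 6362 FPKM in every group.

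Among the S. eubayanus strains on glucose, IMX1939 had the lowest levels of the GRE1 and SIP18 pair. SeGRE1 had 0.738 and 0.695 FPKM in IMX1939, against 5.82 and 8.15 FPKM in IMX1765 and 7.56 and 3.78 FPKM in CDFM21L.1. SeSIP18 had 0.426 and 3.22 FPKM in IMX1939, against 29.3 and 36.0 FPKM in IMX1765 and 27.2 and 13.4 FPKM in CDFM21L.1. SeSPG4 went the other way, with 7.07 and 8.83 FPKM in IMX1939, against 3.22 and 3.68 FPKM in IMX1765 and 3.44 and 4.57 FPKM in CDFM21L.1. In IMX1939 against IMX1765 on glucose, 3 of the 5 were lower and 1 higher without overlap, beside 27.7 and 26.4% of all genes, and against CDFM21L.1 the counts were the same beside 28.3 and 24.2%. IMX1765 and CDFM21L.1 were closer, with 2 of the 5 higher in IMX1765 without overlap, beside 32.7% of all genes, and the largest ratio of means was 1.61 ± 0.807 for SeSIP18.

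The strains also differed on the other sugars for SIP18 and SPG4. SeSIP18 had 8.92 and 17.0 FPKM in IMX1939, against 36.9 and 60.1 FPKM in IMX1765, on maltotriose, and 3.96 and 4.30 FPKM, against 22.1 and 8.82 FPKM, on maltose. SeSPG4 had 358 and 963 FPKM in IMX1939, against 8.86 and 113 FPKM in IMX1765, on maltotriose, and 27.5 and 26.7 FPKM, against 11.9 and 8.64 FPKM, on maltose. SeSIP18 was the only gene of the 5 lower without overlap on these sugars, beside 11.4% of all genes on maltotriose and 11.3% on maltose, and SeSPG4 the only one higher, beside 27.3 and 35.3%.

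Duplicates of 1 group differed most for SPG1, up to 32.6-fold. The second culture was the higher one in 9 of 10 groups for SeSPG1, 8 for SeSTF2 and SeSIP18, and 7 for SeGRE1 and SeSPG4. How often it was the higher one over all genes was not counted. The largest gap between duplicates was 12.7-fold for SeSPG4, 8.0-fold for SeSTF2, 7.54-fold for SeSIP18 and 3.15-fold for SeGRE1. The lower value of that SeSPG4 pair is 1 read in the shallow library, and its next largest gap was 2.69-fold, in IMX1939 on maltotriose. The labels tie no condition to the number of a culture.

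Across the 13 deep S. eubayanus libraries, the courses of the 5 genes were alike to differing degrees. Pearson's r of log2(FPKM + 1) was 0.86 between SeSPG1 and SeSPG4, 0.83 between SeGRE1 and SeSIP18, and 0.82 between SeSTF2 and SeSPG1. It was 0.68 between SeSTF2 and SeSPG4 and 0.59 between SeGRE1 and SeSPG1. The lowest r was 0.05, between SeSIP18 and SeSPG4. The libraries share strains and sugars, so r is a description and has no p. Among 4927 genes whose mean reached 10 FPKM, the course most like SeSPG4 was that of SeYKL187C (r = 0.98), SeADY2, an acetate transporter gene (0.98), and SeGDH2, for the NAD-dependent glutamate dehydrogenase (0.98). For SeSPG1 these were SeRIM4, a regulator of meiosis (0.97), SeYKL065W-A (0.97) and SeYLR446W (0.96). For SeSTF2 they were SeYMR086W, SeSYM1 and SeYOL073C, with r from 0.97 to 0.98. SeGRE1 was most like SeYPL272C (0.92), SeUGA1 (0.90) and SeGND2 (0.89), and SeSIP18 was most like SeAAD14 (0.91) and the 2 models of SeYGL262W (0.91).

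The wider setting was described with 57 genes in 5 lists. They hold hydrophilin-type genes, genes around STF2 (INH1, STF1 and the STF2 paralog TMA10) and stationary-phase and quiescence genes. The other lists hold general stress genes under Msn2 and Msn4, and genes of the osmotic stress pathway. The lists were assembled with earlier results of these data known. Of them, 51 matched a gene of S. eubayanus and 52 one of S. cerevisiae. They were tested with limma (values as log2(FPKM + 1)) and called past a Benjamini-Hochberg adjusted p of 0.05 over all genes. In the hybrid on maltotriose, 75 of the 103 copies changed, 59 higher and 16 lower than on glucose, beside 71% of all genes called, 31.3% higher and 39.7% lower. After the libraries were rescaled by their median ratio, 61 copies were higher and 12 lower, and 3916 higher and 3906 lower of all genes, against 3444 and 4364 without it. In the subgenomes, the listed genes had a median log2 difference of 0.93 (S. eubayanus) and 1.42 (S. cerevisiae), and all genes had -0.16 and -0.12.

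The other hydrophilin-type genes moved in both directions in the hybrid on maltotriose. Of 15 copies 9 were higher, 4 lower and 2 not past the threshold, beside 31.3% higher and 39.7% lower of all genes. HSP12, a small membrane-protecting heat shock protein, rose in both subgenomes. ScHSP12 had 29236 and 29872 FPKM on maltotriose, against 28.7 and 37.2 FPKM on glucose (log2 difference 9.78 ± 0.19 SE, adjusted p = 3.09e-07 in limma). SeHSP12 had 15636 and 17482 FPKM, against 97.0 and 141 FPKM (7.13 ± 0.25, adjusted p = 2.07e-06 in limma). HSP12 thus reached the level of GRE1 in the same libraries. ScWWM1, for a WW-domain protein, fell to 17.5 and 23.7 FPKM on maltotriose, against 73.1 and 65.8 FPKM on glucose, and SeNOP6, for a protein of ribosome biogenesis, fell to 34.1 and 50.6 FPKM, against 98.8 and 101 FPKM.

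All 6 copies of the genes around STF2 rose on maltotriose in the hybrid, beside 31.3% of all genes. TMA10, a paralog of STF2, led them. SeTMA10 had 8695 and 10279 FPKM on maltotriose, against 9.35 and 25.1 FPKM on glucose (log2 difference 9.17 ± 0.74 SE, adjusted p = 5.28e-05 in limma). ScTMA10 had 6258 and 8134 FPKM, against 11.1 and 28.6 FPKM (8.56 ± 0.65, adjusted p = 4.10e-05 in limma). The log2 differences of STF2 itself were 1.16 and 1.82. INH1 and STF1, which inhibit ATP hydrolysis by the ATP synthase, had log2 differences of 1.51 to 2.40.

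Of the stationary-phase and quiescence genes, 15 of 22 copies rose in the hybrid on maltotriose and none of the 22 fell, beside 31.3 and 39.7% of all genes. ScSSA3, for a heat shock protein of the Hsp70 family that appears in the stationary phase, had 436 and 499 FPKM on maltotriose, against 5.58 and 5.45 FPKM on glucose (log2 difference 6.16 ± 0.14 SE, adjusted p = 4.90e-07 in limma). SeSPG5, for a proteasome regulator of the stationary phase, had 1013 and 1348 FPKM, against 16.1 and 15.2 FPKM (6.13 ± 0.16, adjusted p = 6.32e-07 in limma). In this list 9 of 11 S. cerevisiae copies and 6 of 11 S. eubayanus copies rose, and the difference between the subgenomes was not tested. The kinase gene RIM15 and the activator gene GIS1 did not pass the threshold in either subgenome, with log2 differences of 0.22 to 0.68.

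The general stress genes were mixed, with 20 of 35 copies higher, 2 lower and 13 not past the threshold, beside 31.3% higher and 39.7% lower of all genes. ScDDR2, a small stress-responsive gene, had 11606 and 11859 FPKM on maltotriose, against 14.9 and 21.9 FPKM on glucose (log2 difference 9.26 ± 0.51 SE, adjusted p = 1.04e-05 in limma). ScRTN2, a reticulon gene, had 1076 and 594 FPKM, against 16.6 and 22.7 FPKM. Among the genes of the activators themselves, SeMSN2 rose by a log2 difference of 0.60 (adjusted p = 0.0109 in limma), and ScMSN2 and SeMSN4 did not pass the threshold. ScMSN4 fell to 12.3 and 11.6 FPKM, against 15.6 and 19.6 FPKM (adjusted p = 0.0454 in limma), and SeTPS1, for trehalose 6-phosphate synthase, fell to 109 and 79.1 FPKM, against 160 and 166 FPKM (adjusted p = 0.0467 in limma).

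Of the osmotic stress genes, 9 of 25 copies were higher and 10 lower, beside 31.3 and 39.7% of all genes. Nothing particular to this list is read from these counts. ScSTL1, for a glycerol symporter, had 160 and 152 FPKM on maltotriose, against 0.811 and 0.562 FPKM on glucose (log2 difference 6.55 ± 0.22 SE, adjusted p = 1.72e-06 in limma). SeSTL1 had 87.2 and 60.3 FPKM, against 0.757 and 0.905 FPKM. Genes of the signalling chain were among those that fell. ScSSK1, for a response regulator of the HOG pathway, fell to 7.88 and 5.76 FPKM, against 17.2 and 18.0 FPKM, and SeSMP1, for a transcription factor downstream of the Hog1 kinase, fell to 3.53 and 4.48 FPKM, against 20.4 and 19.8 FPKM.

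**Figure D5:**
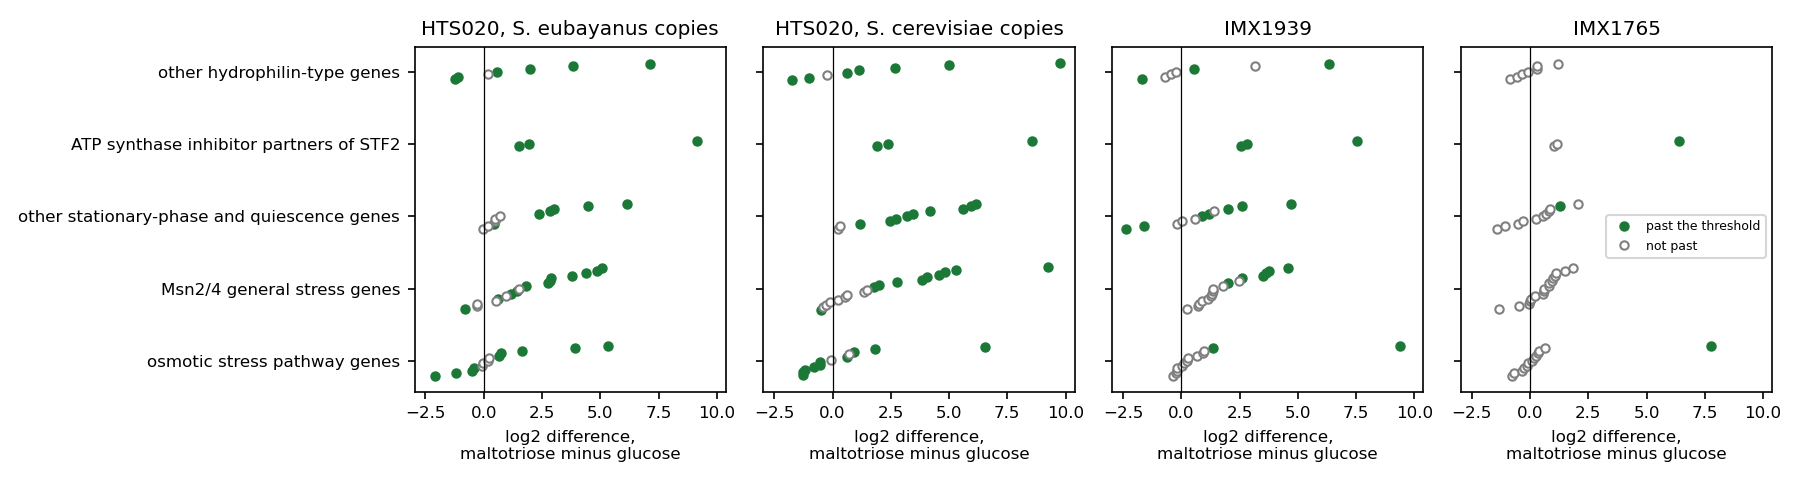
Log2 difference of maltotriose to glucose (log2(FPKM + 1), horizontal axis) of the listed genes, with a point per gene in 4 panels for the 2 subgenomes of HTS020, IMX1939 and IMX1765. Filled points passed the threshold (limma, Benjamini-Hochberg adjusted p under 0.05), 75 of 103 in HTS020, 21 of 51 in IMX1939 and 3 of 51 in IMX1765.

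On maltose 38 of the 103 copies changed in the hybrid, 35 higher and 3 lower than on glucose, beside 11.4% of all genes called, 8.47% higher and 2.98% lower. Rescaling gave 24 copies higher and 3 lower, and 814 higher and 458 lower of all genes, against 931 and 327 without it. STL1 had levels that overlapped those on maltotriose. ScSTL1 had 221 and 140 FPKM on maltose, against 0.811 and 0.562 FPKM on glucose (log2 difference 6.72 ± 0.22 SE, adjusted p = 6.77e-06 in limma). All 6 copies of the genes around STF2 and 14 of 35 copies of the general stress genes rose. ScTMA10 had 439 and 1761 FPKM, against 11.1 and 28.6 FPKM, and ScHSP12 had 147 and 208 FPKM, against 28.7 and 37.2 FPKM. ScHSP12 and ScDDR2 thus had lower levels in both maltose cultures than in both maltotriose cultures, with ScDDR2 at 83.03 and 287 FPKM, against 14.9 and 21.9 FPKM. The 3 copies that fell were ScSNZ1, ScSNO1 and SeSNZ1, of vitamin B6 synthesis. ScSNZ1 fell to 26.3 and 17.8 FPKM on maltose, against 72.8 and 70.4 FPKM on glucose, and SeSNZ1 to 117 and 79.8 FPKM, against 219 and 224 FPKM (adjusted p = 0.024 in limma). This count rests on single cultures, since it was 70 without the first maltose culture and 13 without either glucose culture.

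In IMX1939 on maltotriose 21 of 51 listed genes changed, 18 higher and 3 lower than on glucose, beside 39.8% of all genes called, 23.8% higher and 16% lower. Rescaling gave 18 higher and 5 lower, and 1111 higher and 1143 lower of all genes, against 1286 and 866 without it. All 3 genes around STF2 rose. SeTMA10 had 2889 and 8296 FPKM on maltotriose, against 6.46 and 91.3 FPKM on glucose (log2 difference 7.54 ± 1.11 SE, adjusted p = 0.00118 in limma). SeHSP12 had 6650 and 9025 FPKM, against 22.3 and 384 FPKM (6.35 ± 1.07, adjusted p = 0.00232 in limma). SeSTL1 had 3495 and 1797 FPKM, against 1.03 and 5.96 FPKM (9.38 ± 0.78, adjusted p = 0.000104 in limma). General stress genes rose in 6 of 17 cases, SeRTN2 and SePGM2 with the largest differences among them, and stationary-phase genes in 5 of 11, among them SeYGP1 with 1003 and 1834 FPKM, against 10.8 and 229 FPKM, and SeSPG5. SeSNZ1, SeSNO1 and SeNOP6 fell. SeSNZ1 had 83.4 and 74.3 FPKM on maltotriose, against 440 and 377 FPKM on glucose. The count was 9 without the second maltotriose culture or the first glucose culture, and 34 without the second glucose culture.

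In IMX1939 on maltose 9 of 51 listed genes rose and none fell, beside 16.2% of all genes called, 13.8% higher and 2.35% lower. Rescaling gave 7 higher and 1 lower, and 581 higher and 245 lower of all genes, against 746 and 127 without it. SeSTL1 had 1158 and 823 FPKM on maltose, against 1.03 and 5.96 FPKM on glucose. SeTMA10 had 2008 and 4319 FPKM, against 6.46 and 91.3 FPKM, and SeHSP12 had 1786 and 2212 FPKM, against 22.3 and 384 FPKM. SeINH1, SeSTF1, SeSPG5, SeXBP1, SeDCS2 and SeYBR016W also rose. The count was 5 without the second maltose culture and 15 without the second glucose culture.

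Of the listed genes, 5.88% passed on maltotriose and 9.8% on maltose in IMX1765, near the shares of all genes. On maltotriose 3 of 51 rose, beside 6.18% of all genes called, 4.59% higher and 1.59% lower. On maltose 4 rose and 1 fell, beside 9.34% of all genes called, 7.4% higher and 1.94% lower. SeSTL1 had 307 and 1887 FPKM on maltotriose, against 2.57 and 2.43 FPKM on glucose (log2 difference 7.77 ± 0.78 SE, adjusted p = 0.000688 in limma), and 1289 and 810 FPKM on maltose. SeTMA10 had 733 and 4562 FPKM on maltotriose, against 19.4 and 21.8 FPKM on glucose (6.41 ± 1.11, adjusted p = 0.014 in limma), and 1395 and 1989 FPKM on maltose. SeSPG5 rose on both sugars, SeINH1 on maltose only by this test, and SePBS2, for the kinase above Hog1, fell on maltose to 23.3 and 32.5 FPKM, against 71.2 and 67.9 FPKM. Of the 17 general stress genes 0 passed on either sugar in limma, with 2 on maltose and 0 on maltotriose at an unadjusted p under 0.05, and limma voom on the recovered reads called 1 on each. Of the 7 hydrophilin-type genes 0 passed on either sugar, with 2 on maltose and 1 on maltotriose at an unadjusted p under 0.05, and voom called 0 and 2. The counts depend on the shallow library, since 17 genes passed on maltotriose without it, and 13 on maltose when it was left out of the fit. They also fell to 1 on maltotriose without either glucose culture, to 2 on maltose without the second maltose culture, and to 1 on maltose without any of the other 3 cultures of that comparison, while 5 passed on maltotriose without its second culture.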

How the data were processed

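Messenger RNA was sequenced from duplicate biological cultures as TruSeq libraries. According to the methods, the authors mapped reads with STAR to the CDFM21L.1 assembly, or for the hybrid to the CDFM21L.1 and CBC-1 assemblies, removed ambiguously mapped reads and counted per gene with htseq-count, whereas the submitters' processing notes name STAR 2.5.3a and featureCounts of Subread 1.6.3. The deposited FPKM values were made by the authors with edgeR. No strand-specific kit is named, so reads of overlapping antisense genes cannot be told apart. Reads of the 2 subgenome copies of a gene, and of paralogs, were separated by mapping alone.

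Values multiplied by gene length were whole multiples of a unit set by each library in 100% of cases (tolerance 0.1 read), which gave the reads per gene. Groups came from titles. Comparisons used limma 3.58.1 in R 4.3.3 with an intensity trend on log2(FPKM + 1), over genes whose mean reached 1 FPKM, in 1 fit of 14 S. eubayanus libraries and 1 of 6 hybrid libraries. Adjustment was by Benjamini-Hochberg per comparison, at 0.05. The added value shrinks log2 differences of low genes. Ratios are of mean FPKM with propagated SD. The procedure was tested on simulated data. The members, lists and tests were chosen with earlier results of these data known. Named from each list were the 2 largest rises and the 2 largest falls past the threshold without overlap of cultures. RIM15, GIS1, INH1, STF1, MSN2 and MSN4 were in part named after their values were seen. Genes of like course were taken as the 3 highest correlations per member. Alternatives are given in the closing section. Figures were drawn with matplotlib. Upstream windows were read from the S288C reference genome of RefSeq.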

Additional observations from a re-analysis of the deposited data

Results flagged for a closer look

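SeGRE1 and SeSIP18 had cultures that all moved in opposite directions in different strains on maltose against glucose. For SeGRE1, the log2 difference of maltose to glucose was 1.08 in HTS020 and 1.00 in IMX1939, both cultures being higher on maltose, and -1.19 in IMX1765, both cultures being lower. These differ by 2.27 between HTS020 and IMX1765 and by 2.19 between IMX1939 and IMX1765. For SeSIP18 the log2 difference was 1.31 in HTS020, 1.06 in IMX1939 and -1.15 in IMX1765. These differ by 2.47 between HTS020 and IMX1765 and by 2.22 between IMX1939 and IMX1765. The differences between strains were not tested, HTS020 was tabulated on 2 subgenomes, and its SeGRE1 rested on 5 and 6 reads in the glucose cultures. In IMX1939 on glucose SeGRE1 rested on 7 reads in each culture and SeSIP18 on 2 and 16. Without overlap, 33.2% of all genes were higher on maltose than on glucose in HTS020, 36% were higher in IMX1939 and 38.4% were lower in IMX1765. How many genes moved in opposite directions between strains was not counted.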

How the results depend on the processing

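Counts of listed genes past the threshold moved by more than 1.5 times under several alternatives. For IMX1765 on maltose (5 genes), the count was 30 with only the 2 compared groups in the fit, 9 with limma voom on recovered reads and 13 with the shallow library left out of the fit, a choice made after seeing the data. Leaving out a culture gave 1 to 2. For IMX1765 on maltotriose (3 genes) it was 0 with only the 2 compared groups, where 2 of 51 had an unadjusted p under 0.05, 12 with voom and 1 to 17 without 1 culture. For all genes in that comparison, limma called 334, but 0 with only these groups (597 at an unadjusted p under 0.05), 928 with voom and 21 to 1554 without 1 culture. For IMX1939 on maltose (9 genes) it was 14 with voom, 16 without the shallow library and 5 to 15 without 1 culture, and on maltotriose (21 genes) 9 to 34 without 1 culture. For HTS020 on maltose (38 genes) it was 20 with only the compared groups and 13 to 70 without 1 culture. On maltotriose (75 genes) the count ranged from 73 to 88 across the other settings and was 62 to 66 without 1 culture. A pseudocount of 0.1, other filters and rescaling kept these counts within 1.5 times.

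Cultures of different sugars share only a replicate number, with 2 pairs in each comparison. The deviations of equal numbers had correlations of 0.57 on maltose and 0.59 on maltotriose in IMX1939. In the same order they were 0.17 and 0.13 in IMX1765, and 0.26 and -0.04 in HTS020. With the replicate number as a block, the count for IMX1765 on maltose was 8, and the other 5 counts stayed within 1.5 times.

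No log2 difference of a member without overlap reversed, which among these settings only rescaling could have brought about. Of 85 differences each, 16 moved by more than the spread between duplicates with a pseudocount of 0.1 and 3 after rescaling. With a culture left out, 0 of 340 did. Leaving a culture out of duplicates cannot shift a difference by more than that spread, so nothing is read from this count. Of 15 log2 ratios between copies 6 moved, GRE1 on glucose to -5.96. Depth limits low genes, whose reads on glucose were as few as 1 per library in HTS020.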
